A study of Mus musculus with 6 samples.

Results

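The genes described here are 29 genes of pyruvate oxidation and the tricarboxylic acid (TCA) cycle, out of 46078 gene features with read counts. They were taken from a list of pathway genes whose rule uses no measured value, although earlier results of these data were known when it was drawn up. All 29 were in the count tables. Heart muscle cells were isolated from mice by perfusing the heart outside the body, and poly-A RNA was sequenced from 3 libraries labelled Acly-KD and 3 labelled control. Acly-KD stands for a knockdown of Acly, which encodes ATP citrate lyase, in mice that carry Cas9 behind the Myh6 promoter, a promoter of heart muscle cells. The controls have the genotype wildtype in the labels, which do not say whether they carried Cas9 or a guide, and no strain, age or sex is stated there. Nothing in the labels ties a library to an animal of its own, so each p-value reflects library-to-library spread only, and that spread may be technical.

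Pyruvate enters mitochondria through a carrier built from Mpc1 and Mpc2, and the pyruvate dehydrogenase complex turns it into acetyl-CoA. Kinases of the Pdk family switch that complex off and phosphatases such as Pdp1 switch it back on. Citrate synthase then joins acetyl-CoA to oxaloacetate, and the cycle returns to oxaloacetate while it passes electrons to the respiratory chain. Citrate that leaves the mitochondrion is the substrate of ATP citrate lyase, which is how these genes border on the knocked-down one.

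The counts look strand-swapped: reads of a transcript appear on features of the other strand. For Pdha1 in Acly-KD 1, for example, its own feature held 27 reads and the feature across from it 8626. Each gene was therefore given 2 kinds of value. The own-locus value is the count of the gene's own feature, which under a swap holds reads of the wrong strand. The opposite-strand value is the count of the feature whose exons lie across from the gene, which under a swap holds the mRNA reads that fall in the shared bases. Of the 29 genes, 4 had any exon opposite to them in the annotation, and 2 of these, Pdha1 and Mpc1, could be read from the opposite feature. Across all 6 libraries the 29 own loci together held 4037 reads, while the features opposite to Pdha1 and Mpc1 held 78609. The remaining pair gave no such value. Idh3b shared 5 bases with Nop56, too few to use. Got2 lay across from Gm45760, whose own reads were not analysed here. In the opposite-strand reading the counts of Got2 went to Gm45760. For the other 25 genes only own-locus reads exist.

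Acly itself received 0, 0 and 0 reads in Acly-KD 1 to 3 and 1, 5 and 6 reads in control 1 to 3, all at its own locus, which under a swap holds wrong-strand reads only. Each library had 271463 to 814765 reads in features, out of 9099973 to 26772603 uniquely aligned reads. At 0 reads, a library allowed up to 0.112 to 0.330 RPM, reads per 1000000 uniquely aligned reads (3 counts in that library), which covers counting error only. Among heart muscle genes, 9 of 9 had own-locus reads, with a summed level of 114 to 462 RPM in Acly-KD and 314 to 429 in control. Markers of other cells, also at their own loci, summed to 0.335 to 2.60 RPM in Acly-KD and 0.693 to 1.65 in control for 6 endothelial genes, and 0.460 to 0.700 and 0.367 to 0.784 for 6 fibroblast genes. Pericyte and smooth muscle markers summed to 1.13 to 3.68 RPM in Acly-KD and 2.75 to 3.06 in control. Leukocyte markers summed to 1.97 to 2.72 and 2.09 to 3.39, most of it from Csf1r, while Ptprc and Adgre1 were at 0 in every library. At their own loci the 5 atrial markers summed to 1.00 to 1.65 RPM in Acly-KD and 2.00 to 2.42 in control. Only 2 of the 5, Nppa and Kcnj3, could be read from the opposite strand. They summed to 65.0 to 196 RPM in Acly-KD and 59.3 to 156 in control, most of it from Nppa. Of the 9 heart muscle genes, Myl2 and Ttn summed to 62.6 to 72.5 RPM in Acly-KD and 49.6 to 62.2 in control in that reading. Sums over different genes cannot tell how much atrial RNA there was relative to ventricular RNA. No endothelial, fibroblast, pericyte or leukocyte marker could be read from the opposite strand. These libraries are bulk samples, in which fewer cells of a type and less RNA per cell cannot be told apart.

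The stretches that carry the opposite-strand values lie mostly at the ends of the genes. Pdha1 (chromosome X, 160122209 to 160138413, minus strand, mm10) shares 603 bases with Map3k15, all in the 3′ untranslated part of exon 11, in 3 stretches of 101, 77 and 425 bases. Mpc1 (chromosome 17, 8282904 to 8297661, plus strand) shares 480 bases with 4930506C21Rik, of which 267 lie in the coding transcript used here. Of those 267, 33 are coding and 234 are untranslated. Part of the coding stretch of Mpc1 is shown because reads from it come from the protein-coding message if the strands are swapped. It joins chr17:8296953-8296956 in exon 4 to chr17:8297138-8297162 in exon 5, and its capitals mark the stop codon. It is written 5′ to 3′ on the plus strand, from the GENCODE M21 transcripts.
Mpc1: acgagatgagtaagcggccatctgcaTAG

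**Figure D1:**
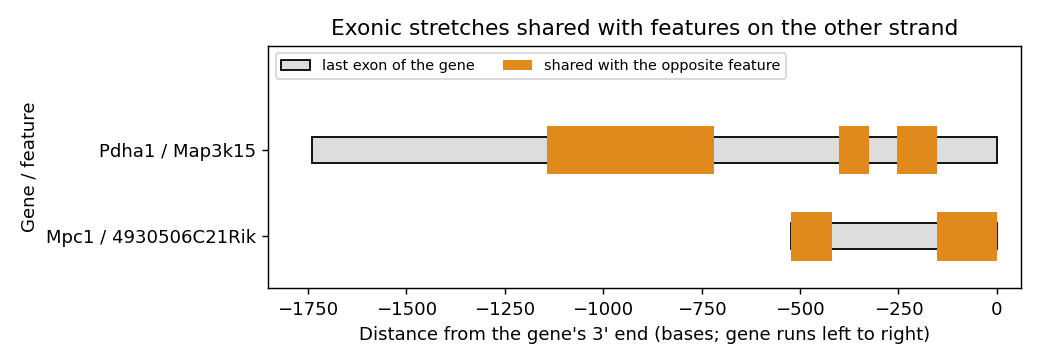
Last exons of Pdha1 and Mpc1 (grey) with the stretches shared with exons on the other strand (orange), against the distance in bases from each gene's 3′ end. Pdha1 has 3 shared stretches in an exon of 1739 bases, and Mpc1 has 2 in an exon of 524 bases.

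Pdha1 encodes the catalytic alpha subunit of pyruvate dehydrogenase. Its opposite-strand value differed little between the groups. The feature across from it received 8626, 5602 and 8699 reads in Acly-KD 1 to 3 and 3311, 8736 and 7927 reads in control 1 to 3. Scaled to library size these were 24089, 25536 and 21987 CPM in Acly-KD and 23554, 20285 and 21612 CPM in control. The highest 2 libraries were Acly-KD 2 and Acly-KD 1, but Acly-KD 3 lay below control 1, so the groups overlapped. The mean was 23871 ± 1784 CPM in Acly-KD and 21817 ± 1644 CPM in control (SD, n = 3 each). In edgeR the adjusted p for Pdha1 was 0.722, at 0.13 on the log2 scale (SE 0.10), and the 95% interval of the change ran from -4.59% to 25.5%. With both Acly-KD 1 and Acly-KD 2 left out the log2 fold change was -0.01.

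Mpc1, a subunit of the mitochondrial pyruvate carrier, was still closer to equal. Its opposite feature received 6594, 4351 and 7419 reads in Acly-KD 1 to 3 and 2739, 7777 and 6828 in control 1 to 3. On the library-size scale the values were 18414, 19833 and 18752 CPM in Acly-KD and 19485, 18058 and 18615 CPM in control. The 6 libraries were interleaved. Means were 19000 ± 741 CPM and 18720 ± 719 CPM (SD, n = 3 each), and edgeR put the log2 fold change at 0.02 (SE 0.09) with an adjusted p of 0.952. The 95% interval for Mpc1 ran from -11.1% to 15.9%. In this reading 6 of 1453 genes tested passed the threshold of 0.05 (0.413%), and neither Pdha1 nor Mpc1 was among them. An unadjusted p under 0.05 was reached by 8.60% of the genes, again without Pdha1 and Mpc1. Both features were also tested in the counts as deposited, where the log2 fold change was 0.16 for Map3k15 (SE 0.13, adjusted p = 0.935 in edgeR) and 0.05 for 4930506C21Rik (SE 0.12, adjusted p = 0.965 in edgeR).

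Per kilobase of all annotated shared exon, 603 bases for Pdha1 and 480 for Mpc1, the level of the reads was alike. Of the 480 bases of Mpc1, 267 lie in the coding transcript used here, and over those alone its density would be higher. Over all shared bases the level was 570 ± 30.4 RPM per kilobase for Pdha1 and 593 ± 20.4 for Mpc1 (SD over 6 libraries). Reads that cross the edge of a shared stretch count in full, so these densities depend on how the stretches are cut. Reads from an RNA that is antisense to the opposite feature, or from anywhere else across from it, are included as well.

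The other genes of the pathway numbered 47, of which 46 were in the tables and 10 could be read from an opposite feature. The test took in 8 of them, and 0 of the 8 passed in either direction (background 0.413%). Their log2 fold changes were split, 4 above and 4 below zero, with a median of 0.04 against 0.01 over all 1453 genes.

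Pdpr, the regulatory subunit of pyruvate dehydrogenase phosphatase, read 1025, 1080 and 1029 CPM in Acly-KD 1 to 3 and 1131, 859 and 932 CPM in control 1 to 3. All 3 Acly-KD libraries lay within the range of the controls. Sdhaf1 and Sdhaf4, assembly factors of succinate dehydrogenase, had log2 fold changes of 0.09 and -0.01, with 95% intervals from -0.28 to 0.46 and from -0.41 to 0.39. Acss1, which makes acetyl-CoA from acetate inside mitochondria, read 975, 903 and 1231 CPM in Acly-KD and 1302, 1103 and 1085 CPM in control. Its log2 fold change was -0.15, with an interval from -0.45 to 0.15. Sdhaf1 and E130208F15Rik, the feature across from it, overlap over all 1733 exonic bases of that feature.

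Me3, a mitochondrial malic enzyme that makes pyruvate from malate, had the lowest log2 fold change of the 8. It read 304, 328 and 425 CPM in Acly-KD 1 to 3 and 470, 427 and 474 CPM in control 1 to 3. All 3 Acly-KD libraries lay below all controls, though Acly-KD 3 and control 2 nearly met. Of all genes tested in this reading, 14.7% had groups that did not overlap. Me3 did not pass in edgeR (adjusted p = 0.578), at -0.36 on the log2 scale (SE 0.18). Its reads come through A230065N10Rik, an annotated antisense RNA with 569 shared bases.

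**Figure D2:**
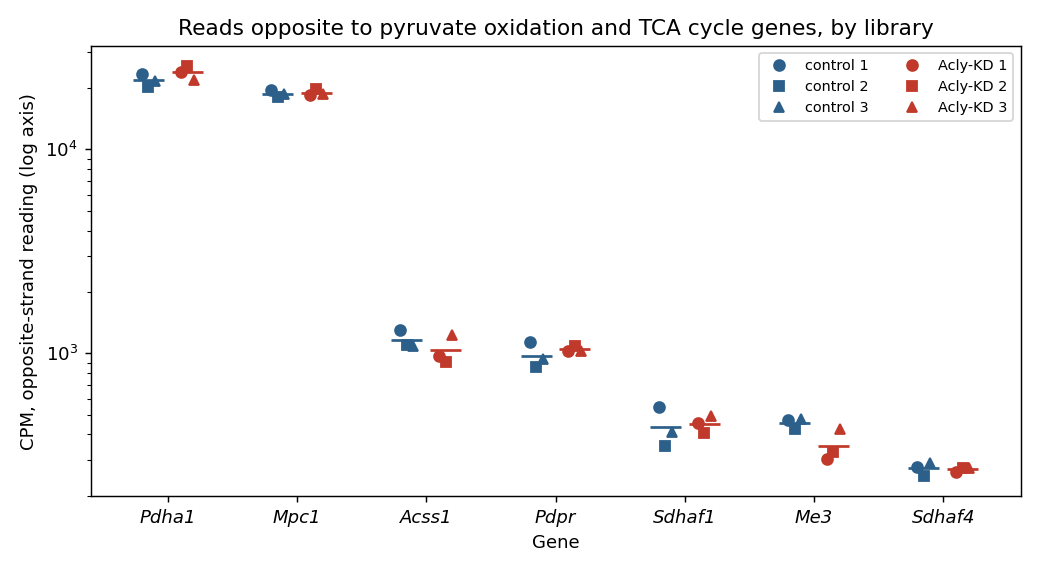
Opposite-strand values in CPM (log axis) for Pdha1, Mpc1 and 5 other genes of the pathway, 1 point per library (blue control, red Acly-KD, marker shape by replicate) with a bar at each group's mean. Pdha1 and Mpc1 lie highest, between 18058 and 25536 CPM with overlapping libraries, and Me3 is the one gene whose groups do not overlap.

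At the own loci, 19 of the 29 genes had enough reads for the test and 10 did not. In the counts as deposited 0 of 2952 features passed (0%), with 180 at an unadjusted p under 0.05 (6.10%), and DESeq2 also called 0. So 0 of the 19 genes passed, and 2 of them, Idh3b and Pdk2, had an unadjusted p under 0.05. Values lay below zero for 14 of the 19 and above zero for 5, with a median log2 fold change of -0.44. Over all features tested 54.4% lay below zero with a median of -0.04. Above zero were 45.6% of them, or 34.5% when libraries were scaled to uniquely aligned reads. Among features with no exon across from them, which is the case for 15 of the 19, 73.8% of 715 lay below zero, with a median of -0.29. Groups did not overlap for 0 of the 19, against 11.4% of all features.

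The own-locus shortfall was in 2 libraries. The median of the 19 genes on the log2 scale, relative to the mean of the controls, stood at -1.17 in Acly-KD 1, -0.66 in Acly-KD 2 and 0.41 in Acly-KD 3, while the controls stood at 0.17, 0.31 and -0.46. Acly-KD 1 was the lowest library for 15 of the 19 genes, and Acly-KD 3 was the highest for 8. For 9 genes both Acly-KD 1 and Acly-KD 2 lay below all controls, and for 9 genes Acly-KD 3 lay above all controls. The same counts were not made over all features, so they cannot be called particular to these genes. Features with no opposite exon moved the same way as a whole, with medians of -0.84, -0.31 and 0.20 in Acly-KD 1 to 3 and 0.05, 0.12 and -0.10 in control 1 to 3. Without Acly-KD 3, 6 of the 19 genes passed as lower (Idh3b, Pdk4, Mdh2, Fh1, Got2 and Idh2), among 46 of 2998 features called lower (1.53%) and 23 called higher. The share called lower among features with no opposite exon was not counted, so these calls cannot be called particular to the pathway. With Acly-KD 1 and 2 both left out, the median of the 19 was 0.40. With only features that have no opposite exon in the fit, 14 of the genes had a value, and their median was -0.16, against -0.43 for the same 14 in the fit of all features. The own-locus sum of the 9 heart muscle genes followed the same order of libraries in Acly-KD. It was 114, 223 and 462 RPM in Acly-KD 1 to 3 and 429, 415 and 314 in control 1 to 3. Its part in these values was not tested.

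Own-locus reads, which under a swap are of the wrong strand, can be set against opposite-strand reads within a library. The 25 genes with no opposite exon together held 17.5, 24.8 and 61.9 own-locus reads per 1000 opposite-strand reads of Pdha1 and Mpc1 in Acly-KD 1 to 3, and 47.6, 62.5 and 37.3 in control 1 to 3. Acly-KD 1 and 2 were the lowest, Acly-KD 3 was next to the highest, and an exact two-sided permutation test over libraries gave p = 0.4, where 3 against 3 cannot go below 0.1. For all nuclear features, reads in features with no opposite exon per 1000 reads in features with one were 52.2, 74.8 and 115 in Acly-KD and 99.4, 99.2 and 84.5 in control. For Pdha1 alone the own-locus reads per 1000 opposite reads were 3.13, 5.71 and 8.62 in Acly-KD and 5.44, 7.55 and 3.91 in control. Except for Pdha1 alone, these ratios set different genes against each other, so they also depend on the levels of those genes. The ratios varied by a wide margin between libraries of one group, and their part in the own-locus values was not tested.

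**Figure D3:**
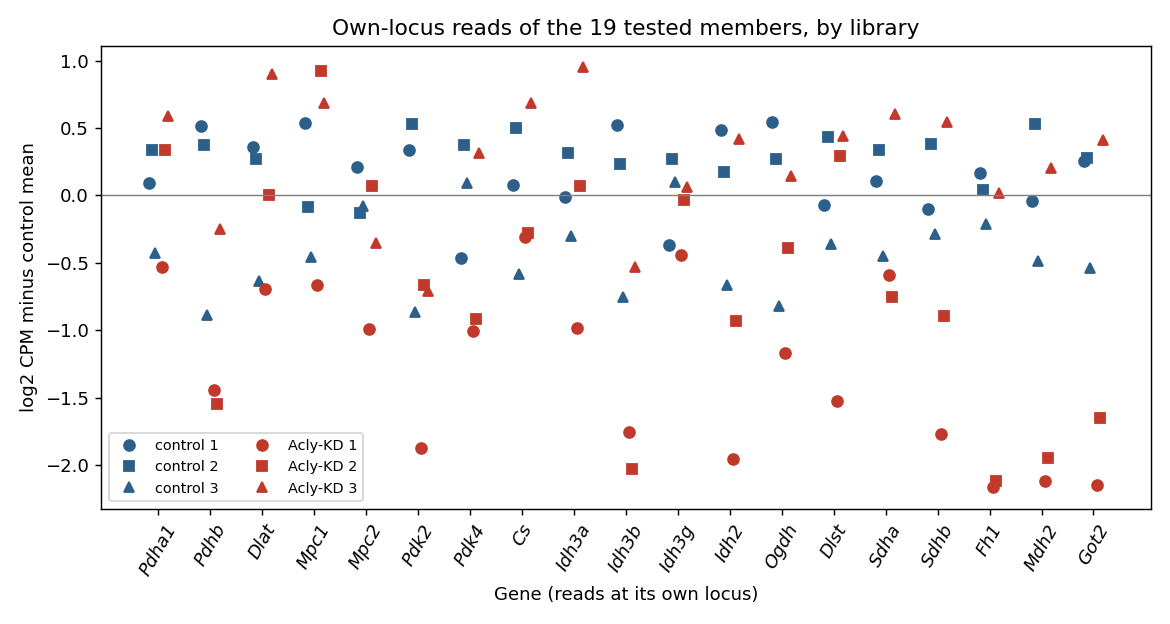
Own-locus log2 CPM minus the control mean for the 19 tested genes, 1 point per library (blue control, red Acly-KD, marker shape by replicate). Acly-KD 1 is the lowest library for 15 of the 19 genes, while Acly-KD 3 lies among or above the controls for most.

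In the pyruvate dehydrogenase complex the own-locus reads of 5 subunit genes summed to 1.92, 2.99 and 5.93 RPM in Acly-KD 1 to 3 and 4.84, 5.68 and 2.57 in control 1 to 3. Pdhb, the beta subunit of the catalytic component, had 7, 4 and 23 reads in Acly-KD 1 to 3 and 14, 39 and 12 in control 1 to 3. After scaling, Acly-KD 1 and 2 were its lowest libraries and Acly-KD 3 lay within the controls. Pdhb stood at -1.09 on the log2 scale (SE 0.54; edgeR adjusted p = 0.865). Dlat, the acetyltransferase core, had 8, 9 and 35 reads against 8, 23 and 9, and a log2 fold change of 0.25 (SE 0.54). Pdha1 had 27, 32 and 75 own-locus reads against 18, 66 and 31, and a log2 fold change of 0.18 (SE 0.35). That value was -0.06 without Acly-KD 3 and -0.03 without control 3. Under a swap the own-locus reads of Pdha1 may include mRNA reads of Map3k15. Dld, the shared dehydrogenase subunit, ranged from 0 to 19 reads per library, and Pdhx, the subunit that binds it to the core, from 0 to 7, and neither was tested.

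The regulators of the complex included the gene with the densest own-locus signal, Pdk4, a kinase induced by fasting and fatty acids. Pdk4 had 79, 53 and 247 reads in Acly-KD 1 to 3 and 49, 271 and 183 in control 1 to 3, which is 1.86 ± 0.845 RPM per kilobase of exon (SD over 6 libraries). In CPM its values were 121, 129 and 309 in Acly-KD and 178, 321 and 263 in control. Acly-KD 1 and 2 lay below all controls and Acly-KD 3 lay close to the highest control. The edgeR estimate for Pdk4 was -0.45 on the log2 scale (SE 0.39, 95% interval -1.37 to 0.47, adjusted p = 0.959). Without Acly-KD 3 it was -1.003 (adjusted p = 0.0300 in edgeR), and with only features without opposite exons in the fit it was -0.16 (adjusted p = 0.973 in edgeR).

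Pdk2, the most widespread kinase of the family, had 5, 9 and 17 reads in Acly-KD 1 to 3 and 13, 46 and 13 in control 1 to 3. In CPM these were 7.68, 22.0 and 21.2 against 47.3, 54.4 and 18.7, so only control 3 fell among the Acly-KD libraries. For Pdk2 edgeR gave -1.24 (SE 0.53, adjusted p = 0.742) on that scale. On the log2 scale, relative to the control mean, Pdk2 stood at -0.71 in Acly-KD 3 and at -0.87 in control 3. Pdk1 had 0 to 10 reads per library and Pdp1, the phosphatase, 0 to 3, and neither was tested. Pcx, pyruvate carboxylase, which makes oxaloacetate from pyruvate, had 4 reads in all.

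Of the carriers, Mpc1 had 7, 16 and 26 own-locus reads in Acly-KD 1 to 3 and 8, 15 and 9 in control 1 to 3, with a log2 fold change of 0.53 (SE 0.55). Those reads can also come from 4930506C21Rik transcripts, if any. Mpc2, its partner subunit, had 5, 8 and 11 reads against 6, 14 and 12, and a log2 fold change of -0.44 (SE 0.55). Neither passed the test.

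In the first steps of the cycle, Cs, citrate synthase, had 14, 9 and 37 own-locus reads in Acly-KD 1 to 3 and 8, 34 and 12 in control 1 to 3. Its log2 fold change was 0.08, with a 95% interval from -0.93 to 1.08. The NAD-dependent isocitrate dehydrogenase is built from Idh3a, Idh3b and Idh3g. The 95% intervals of these genes overlapped, and their values were not tested against each other. Idh3a, the catalytic subunit, had 5, 8 and 31 reads against 5, 20 and 10, and a log2 fold change of 0.25 (SE 0.57). Idh3b had 12, 6 and 38 reads in Acly-KD and 28, 70 and 28 in control.

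Idh3b had the lowest own-locus log2 fold change of the 19 genes. In CPM it read 18.4, 14.7 and 47.5 in Acly-KD 1 to 3 and 102, 82.8 and 40.3 in control 1 to 3. Acly-KD 3 lay just above control 3, so the groups overlapped. Under a swap the own-locus reads of Idh3b may include mRNA reads of Nop56 that reach the 5 shared bases. In edgeR Idh3b was at -1.36 on the log2 scale (SE 0.46) with an adjusted p of 0.579. Without Acly-KD 3 it was -2.03 (adjusted p = 0.0284 in edgeR), and with Acly-KD 1 and 2 both left out it was -0.59. With the replicate number as a block Idh3b was at -1.44 (adjusted p = 0.940 in edgeR). Idh3g, which is a regulatory subunit like Idh3b, had 27, 23 and 48 reads against 12, 59 and 43, and a log2 fold change of -0.19 (SE 0.32). Idh2, the NADP-dependent isocitrate dehydrogenase of mitochondria, had 24, 32 and 164 reads against 59, 146 and 66. Acly-KD 3 of Idh2 was close to the highest control, and edgeR gave -0.52 (SE 0.67) with an adjusted p of 0.965.

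In the middle of the cycle, Ogdh, the first component of oxoglutarate dehydrogenase, had 26, 29 and 83 reads in Acly-KD 1 to 3 and 38, 96 and 36 in control 1 to 3, with a log2 fold change of -0.45 (SE 0.41). Dlst, its succinyltransferase, had 3, 10 and 22 against 5, 23 and 10, with a log2 fold change of -0.12 (SE 0.59). The genes of succinate-CoA ligase (Sucla2, Suclg1 and Suclg2), which makes ATP or GTP from succinyl-CoA, were not tested. Their own-locus reads summed to 0.627, 1.02 and 1.23 RPM in Acly-KD and 1.10, 0.896 and 0.816 in control, with no group on one side.

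Succinate dehydrogenase, which is also complex II of the respiratory chain, gave 4 subunit genes. Their own-locus reads summed to 1.55, 1.84 and 5.82 RPM in Acly-KD 1 to 3 and 3.63, 4.82 and 2.81 in control 1 to 3. Acly-KD held both the lowest and the highest libraries. Sdha, the flavoprotein subunit, had 27, 15 and 79 reads against 19, 69 and 32, with a log2 fold change of -0.11 (SE 0.39). Sdhb, the iron-sulfur subunit, had 6, 8 and 47 against 10, 44 and 22, with a log2 fold change of -0.42 (SE 0.55). Sdhc and Sdhd, the membrane anchors, had 0 to 12 and 1 to 14 reads per library and were not tested.

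The last enzymes of the cycle had a wide split inside the Acly-KD group. Fh1, fumarase, had 3, 2 and 26 reads in Acly-KD 1 to 3 and 10, 28 and 19 in control 1 to 3. In CPM these were 4.61, 4.88 and 32.5 against 36.4, 33.1 and 27.3, with Acly-KD 3 inside the range of the controls. Mdh2, the mitochondrial malate dehydrogenase, had 4, 3 and 35 reads against 10, 47 and 18. Got2, the mitochondrial aspartate aminotransferase of the malate-aspartate shuttle, had 5, 5 and 49 reads against 15, 47 and 21. Under a swap the reads of Got2 may include reads from Gm45760 transcripts, if any. The log2 fold changes were -1.05 (SE 0.62) for Fh1, -0.95 (SE 0.65) for Mdh2 and -0.68 (SE 0.65) for Got2, with adjusted p of 0.906, 0.915 and 0.959 in edgeR. Without Acly-KD 3 they were -2.64, -2.50 and -2.19 (adjusted p = 0.0300, 0.0300 and 0.0354 in edgeR), and with Acly-KD 1 and 2 both left out they were 0.03, 0.12 and 0.41.

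**Figure D4:**
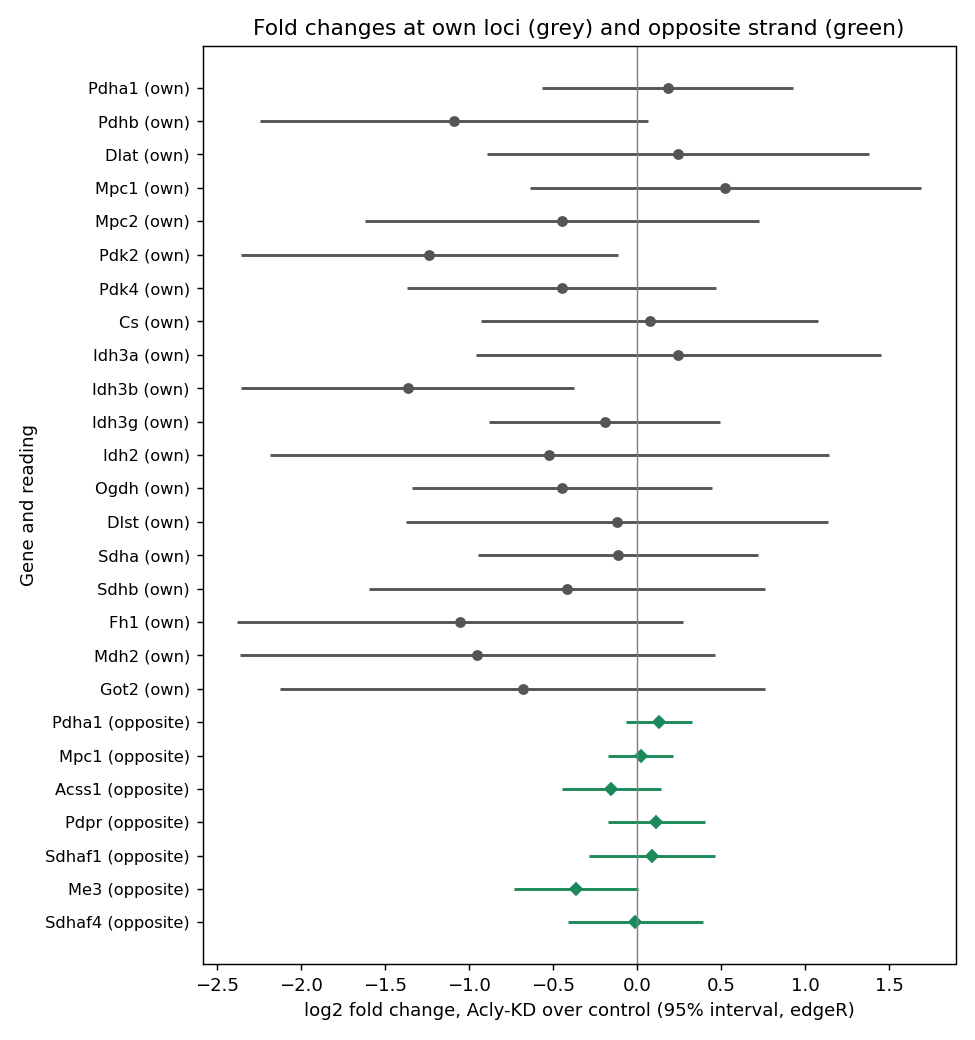
Log2 fold change of Acly-KD over control with its 95% interval from edgeR, for the 19 genes at their own loci (grey circles) and for 7 genes of the pathway from the opposite strand (green diamonds). The intervals of Pdha1 and Mpc1 are 0.40 and 0.38 wide from the opposite strand, against 1.37 to 3.32 over the own loci.

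The other pathway genes were also read at their own loci. Among the 46 with counts, 13 were tested and 0 passed in either direction (background 0%). Values for 11 of the 13 were below zero, and the median was -0.35 on the log2 scale. Slc25a4, the heart's ADP/ATP carrier, read 52.2, 137 and 285 CPM in Acly-KD 1 to 3 and 295, 291 and 190 CPM in control 1 to 3. Mdh1, the cytosolic malate dehydrogenase, read 29.2, 44.0 and 144 CPM against 157, 141 and 69.0 CPM. Ldhb, the heart form of lactate dehydrogenase, read 18.4, 44.0 and 135 CPM against 83.7, 97.0 and 74.8 CPM. In these 3 genes Acly-KD 1 and 2 were the lowest libraries and Acly-KD 3 lay within or above the controls. Ldhd, a lactate dehydrogenase for the D form, and Slc25a11, the oxoglutarate carrier, had log2 fold changes of 0.33 and -0.14. Ldhd read 127, 249 and 211 CPM in Acly-KD 1 to 3 and 69.2, 167 and 210 CPM in control 1 to 3, so its lowest library was control 1 and its highest Acly-KD 2. Slc25a11 read 96.7, 144 and 131 CPM against 120, 146 and 138 CPM, with only Acly-KD 1 below all controls. Under a swap the own-locus counts of Ldhd, Slc25a11 and Mdh1 may hold mRNA reads of the genes across from them, Znrf1, Rnf167 and Wdpcp.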

How the data were processed

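The authors deposited raw counts, whole numbers of reads for each gene, in 1 table per library. Tools in the submitters' processing notes were TopHat2, HTSeq, SAMtools, FastQC and DESeq2, with no versions, and the build was mm10. Libraries were made with a stranded kit, per the labels' protocols, but how strand was set when reads were counted is not stated. Rows that name no gene took 97.4% to 97.7% of entries and were left out.

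Features were matched by identifier to GENCODE M21 (45143 of 46078). In the opposite-strand reading, a nuclear feature's counts went to the gene holding at least 80% of its opposite-strand exonic overlap with a minimum of 50 bases, provided the gene had fewer reads than the feature or no row of its own, which gave 2973 genes. Each reading was fitted as a whole in edgeR 4.0.16 (R 4.3.3) with TMM, filterByExpr (minimum count 10) and robust quasi-likelihood. P-values were adjusted by Benjamini-Hochberg over all features, with a threshold of 0.05. Intervals use the t distribution. CPM uses the TMM-scaled total of the features tested. Libraries of one group differed by more than counting error (chi-square per degree of freedom 3.43 to 10.1), so none was counted as the same library deposited again. Whether they share an animal was not tested. On simulated counts the fit recovered 25.4% of 2-fold changes over the 2952 features as deposited and 62.7% over the 1453 genes of the opposite-strand reading.

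The genes and lists were chosen with earlier results of these data known. Values per library are printed for each of the 29 genes whose own or assigned opposite feature passed the filter, and for up to 6 of the other pathway genes with the highest counts in each reading; 1 gene named by that rule is not reported here. Alternatives were DESeq2 1.42.0, other scalings and filters, a replicate block, single libraries left out, and other choices of features. Library size from uniquely aligned reads, and leaving out Acly-KD 1 and 2 together, were added after the data were seen.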

Additional observations from a re-analysis of the deposited data

How the results depend on the processing

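Neither Pdha1 nor Mpc1 passed the threshold of 0.05 from the opposite strand under any alternative run. Their log2 fold changes ran from 0.08 to 0.19 and from -0.0112 to 0.0491 with single libraries left out. Scaled to uniquely aligned reads Mpc1 was -0.0564, and with Acly-KD 1 and 2 both left out Mpc1 was -0.0226 and Pdha1 -0.0138. The median of both genes was then -0.0182. The cause of these changes of sign was not tested.

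Over both readings 31 sign changes were counted, most of them from leaving libraries out. With Acly-KD 1 and 2 both left out, which sets 1 library against 3 and assumes that it varies like the controls, the median was 0.41 over the 26 genes tested in that fit and 0.40 over the 19. Single values were 0.42 for Dlst, 0.51 for Sdhb, 0.12 for Mdh2, 0.23 for Pdk4, 0.10 for Ogdh, 0.59 for Sdha, 0.0327 for Fh1, 0.40 for Idh2 and 0.41 for Got2. With only features that have no opposite exon in the fit, Idh3g, Dlst and Sdha were 0.19, 0.14 and 0.18, and scaled to uniquely aligned reads Cs was -0.0127. With single libraries left out, Dlat ran from -0.38 to 0.62, Cs from -0.36 to 0.50, Pdha1 from -0.0599 to 0.47, Idh3a from -0.52 to 0.67, Dlst from -0.59 to 0.36, Sdhb from -1.52 to 0.0352 and Sdha from -0.67 to 0.14.

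Counts over all features moved too. As deposited, single libraries left out gave 0 to 23 features called higher and 0 to 46 lower, no filter 2 and 1, and Acly-KD 1 and 2 left out 10 and 26. From the opposite strand the counts were 0 to 8 higher and 1 to 12 lower with single libraries left out, 12 and 18 with no filter, and 1 and 1 with Acly-KD 1 and 2 left out. Higher calls numbered 1 with DESeq2's test, the stricter filter or 200 shared bases, with 3, 2 and 2 lower, against 3 and 3 as reported. Library totals gave 4 higher and 2 lower, and scaling to uniquely aligned reads gave 0 and 2 and moved the median of all features as deposited by -0.10. With the replicate number as a block, 5 genes were called higher and 7 lower from the opposite strand. Whether libraries of the same number belong together was not settled. Same-numbered deviations correlated at -0.07, -0.02 and -0.19 as deposited. Deviations within a group cancel out, so such correlations cannot decide it. At the own loci 10 of 29 genes had too few reads to test.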

Other observations

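The ratio of 2 opposite-strand values within a library does not depend on library size, and 3 such ratios were computed after the values had been seen, of which 1 is reported. Reads of Pdha1 per read of Mpc1 were 1.31, 1.29 and 1.17 in Acly-KD 1 to 3 and 1.21, 1.12 and 1.16 in control 1 to 3, with means of 1.26 ± 0.0731 and 1.16 ± 0.0429 (SD, n = 3 each). Control 1 lay above Acly-KD 3, and an exact two-sided permutation test gave p = 0.2 (adjusted p = 0.3 over the 3 ratios). The smallest p that 3 libraries against 3 allow is 0.1.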
